A study of Rattus norvegicus with 12 samples.

Results

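The transcripts described here come from 9 genes of the mitochondrial DNA whose proteins are core subunits of the respiratory chain and the ATP synthase. They were chosen by gene ID, and all 9 were found among the 23978 genes of the deposited table and passed the filter on low counts, which left 12731 genes for testing. For complex I these were Mt-nd1 (ENSRNOG00000030644), Mt-nd2 (ENSRNOG00000031033), Mt-nd4 (ENSRNOG00000029707) and Mt-nd5 (ENSRNOG00000029971). Mt-cyb (ENSRNOG00000031766) stood for complex III, and Mt-co1 (ENSRNOG00000034234), Mt-co2 (ENSRNOG00000030371) and Mt-co3 (ENSRNOG00000030700) for complex IV. Mt-atp6 (ENSRNOG00000031979) stood for the ATP synthase, complex V. Other mitochondrial protein genes, such as Mt-nd4l and Mt-atp8, were not on the list and were not examined on their own. The symbols came with the list of IDs, because the file gives IDs alone and the reference table of rat genes held 0 of them.

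The cells were OC1, a cultured line labelled as cochlear sensory epithelium, which the labels place in rat. The control group was labelled WT and siControl, and the 2 others Bcl-2 knockdown by siBcl-2 1423 or siBcl-2 1928, siRNAs directed at different stretches of the Bcl-2 message and given with a lipid reagent, as the protocol describes for all 3 groups. Each group held 4 libraries, lettered A to D, of mRNA selected on its poly(A) tail. No library was made from untransfected cells, and no source used here says whether the letters mark separate cultures, so each p-value covers only the spread between these libraries. The labels contradict themselves on the reagent, with a treatment tag that speaks of a plasmid, and on replicate B of the control group, whose description has an added NC. Without gene symbols for the other IDs, the level of Bcl2 and the markers of cochlear epithelium were not analysed here. A mouse line of the inner ear has a similar name, and the species of the cells was not tested.

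The respiratory chain passes electrons from NADH along complexes I, III and IV to oxygen and pumps protons across the inner mitochondrial membrane, and complex V uses the proton gradient to make ATP. Most of its subunits are encoded in the nucleus, but the hydrophobic cores of complexes I, III, IV and V are encoded by mitochondrial DNA. All 9 genes lie on the same coding strand of that genome and are transcribed together as a long precursor. The precursor is cut apart, mostly at flanking tRNAs, and the messages are given short poly(A) tails. Their mature levels thus depend on processing and decay as well as on transcription. Mt-nd4 and Mt-atp6 overlap with the small genes Mt-nd4l and Mt-atp8, and their counts may hold reads of these partners. Bcl-2 itself sits on the outer membrane of the same organelle, and hair cells of the cochlea are known for a high demand for ATP.

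The library totals ran from 15671546 to 23247593 expected counts, and each of the 9 genes was covered by at least 20456 counts in every library (the lowest being Mt-nd1 in replicate B of siRNA 1928), so counting error was small beside the spread between libraries. Values are counts per 1000000 scaled by trimmed means of M values (CPM), and they are levels relative to the rest of the mRNA in a library. In such bulk samples fewer mitochondria-rich cells and less mitochondrial RNA per cell cannot be told apart. Gene lengths were not used here, so CPM are compared between libraries for 1 gene and never between genes. The 9 genes together held 2.79 ± 0.11% of the counts of the control libraries, 2.92 ± 0.105% under siRNA 1423 and 2.74 ± 0.11% under siRNA 1928 (mean ± SD, 4 libraries each). The ranges were 2.65 to 2.91%, 2.82 to 3.07% and 2.60 to 2.85%, so the groups overlapped in this total. As a share of each library's counts, it amounts to scaling by library size alone. It leaves out the scaling factors, which were 1.02 to 1.03 with siRNA 1928, 0.985 to 0.995 in the control group and 0.978 to 0.988 with siRNA 1423. Whether the groups overlap in this total after such scaling was not examined.

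With siRNA 1928 the 4 complex I transcripts among the 9 were lower than in control cells. Of the complex IV transcripts Mt-co2 alone was called lower, by less, and the call was lost in 11 of 24 alternative settings. All 4 complex I messages fell, to between 0.798 and 0.861 of the control level. Mt-cyb, Mt-co2 and Mt-atp6 fell by less, to between 0.934 and 0.940, and Mt-co1 and Mt-co3 did not pass the test. By edgeR's quasi-likelihood test with Benjamini-Hochberg adjustment over all 12731 genes at 0.05, 7 of the 9 genes were lower and 0 were higher. At an unadjusted p under 0.05 the count of higher ones was also 0, as it was with DESeq2 and limma voom, but 1 (Mt-co1) was called higher when libraries were scaled by library size alone. Of all tested genes 45.2% were called in this comparison, 23.3% as lower and 21.8% as higher. The median log2 fold change of the 9 genes was -0.10, beside 0.0034 over all tested genes, and -0.0421 beside 0.0599 with library size alone. Lower values were also frequent among other abundant transcripts: of 52 other genes averaging at least 1000 CPM, 40.4% were called lower and 15.4% higher, with a median of -0.05. The difference between complex I and the other genes is a description and was not tested.

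Mt-nd1 encodes the complex I subunit beside the site where ubiquinone is reduced. Its CPM in the control group were 1615, 1576, 1701 and 1635 in replicates A to D. With siRNA 1928 they were 1203, 1267, 1369 and 1370 in the same order. Every library of siRNA 1928 lay below every control library. The mean went from 1632 ± 52.5 to 1302 ± 82.0 CPM (SD, n = 4 each), a log2 fold change of -0.33 (SE 0.0414, adjusted p = 1.18e-06), the largest fall of the 9.

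Mt-nd2, Mt-nd4 and Mt-nd5 encode the antiporter-like subunits of the complex I membrane arm, through which protons are moved. Mt-nd2 had CPM of 2107, 2004, 2196 and 2066 in control replicates A to D and of 1677, 1781, 1900 and 1850 with siRNA 1928. Mt-nd4 had CPM of 1817, 1808, 1805 and 1707 in the control group and of 1389, 1499, 1566 and 1538 with siRNA 1928. For both genes the groups did not overlap, and the log2 fold changes were -0.22 for Mt-nd2 (SE 0.0375, adjusted p = 6.32e-05) and -0.25 for Mt-nd4 (SE 0.0335, adjusted p = 2.18e-06). Mt-nd5 had CPM of 1765, 1448, 1746 and 1743 in the control group and of 1286, 1446, 1396 and 1490 with siRNA 1928. Its groups overlapped because control replicate B, at 1448, was far below the other control libraries and under replicate D of siRNA 1928. Its log2 fold change was -0.26 (SE 0.0501, adjusted p = 0.000252), and -0.32 without that control library. In all, 3 of the 9 genes were lower without overlap and 0 were higher, beside 20.3% and 19.1% of all tested genes.

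Mt-cyb encodes cytochrome b, which carries the b-type hemes of complex III. Its CPM were 2307, 2206, 2408 and 2300 in the control replicates A to D and 2049, 2139, 2247 and 2236 with siRNA 1928. The ranges overlapped, since control replicate B was below replicates C and D of siRNA 1928. The log2 fold change was -0.09 (SE 0.0338, adjusted p = 0.0364). It missed the threshold with library size alone (-0.03, adjusted p = 0.419) and without control replicate A, C or D or replicate A or B of siRNA 1928 (adjusted p = 0.0508 to 0.148), and over all alternatives the adjusted p ran from 0.00146 to 0.419.

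Mt-co1 encodes the catalytic subunit of cytochrome c oxidase, complex IV, where oxygen is reduced. Its CPM were 10751, 10274, 11145 and 10491 in the control group and 10249, 10656, 11297 and 11013 with siRNA 1928. The values of the groups were interleaved. The log2 difference was 0.02 with a 95% interval of -0.04 to 0.08 (adjusted p = 0.655), whose lower end lies above the values of all 4 complex I genes. With library size alone it was 0.08 and passed the test as an increase (adjusted p = 0.0313, with 0.0313 to 0.993 over all alternatives), and it was -0.00387 without replicate C of siRNA 1928.

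Mt-co2, whose protein takes electrons from cytochrome c, had CPM of 2326, 2216, 2393 and 2306 in the control group and of 2040, 2138, 2276 and 2185 with siRNA 1928. Replicate C of siRNA 1928 lay above control replicate B, and the log2 fold change was -0.10 (SE 0.0384, adjusted p = 0.0432). It missed the threshold in 11 of 24 alternatives. These were library size alone (-0.04, adjusted p = 0.373), DESeq2 (adjusted p = 0.0505) and edgeR with DESeq2 size factors (adjusted p of 0.05 after rounding). A filter of at least 1 CPM in 4 libraries (adjusted p = 0.0533) and replicates C and D alone (adjusted p = 0.0892) also lost the call. So did leaving out control replicate A, C or D or replicate A, B or D of siRNA 1928 (adjusted p = 0.0604 to 0.162). Over all alternatives its adjusted p ran from 0.0029 to 0.373. Mt-co3, the third mitochondrial subunit of complex IV, had CPM of 3564, 3148, 3791 and 3432 in the control group and of 3308, 3398, 3596 and 3527 with siRNA 1928. All 4 libraries of siRNA 1928 fell inside the control range. The log2 difference was -0.01, with a 95% interval of -0.11 to 0.09 (adjusted p = 0.869), and its value was 0.05 with library size alone and 0.03 without control replicate C.

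Mt-atp6 encodes the subunit through which protons pass in the membrane part of the ATP synthase. Its CPM were 2259, 2176, 2327 and 2253 in the control group and 1969, 2057, 2195 and 2200 with siRNA 1928. Replicates C and D of siRNA 1928 lay above control replicate B. The log2 fold change was -0.10 (SE 0.0359, adjusted p = 0.0293), with -0.04 and an adjusted p of 0.32 when libraries were scaled by size alone. The call was also lost without control replicate C or D or replicate A or B of siRNA 1928 (adjusted p = 0.0533 to 0.132), and the adjusted p over all alternatives ran from 0.000718 to 0.32. The scaling factors were 1.02 to 1.03 with siRNA 1928 and 0.985 to 0.995 in the control group, and the median over all genes was 0.06 with library size alone. Of all calls 64.4% were then increases, beside 48.3% with trimmed means, and the complex I genes were the 4 members still called lower.

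**Figure D1:**
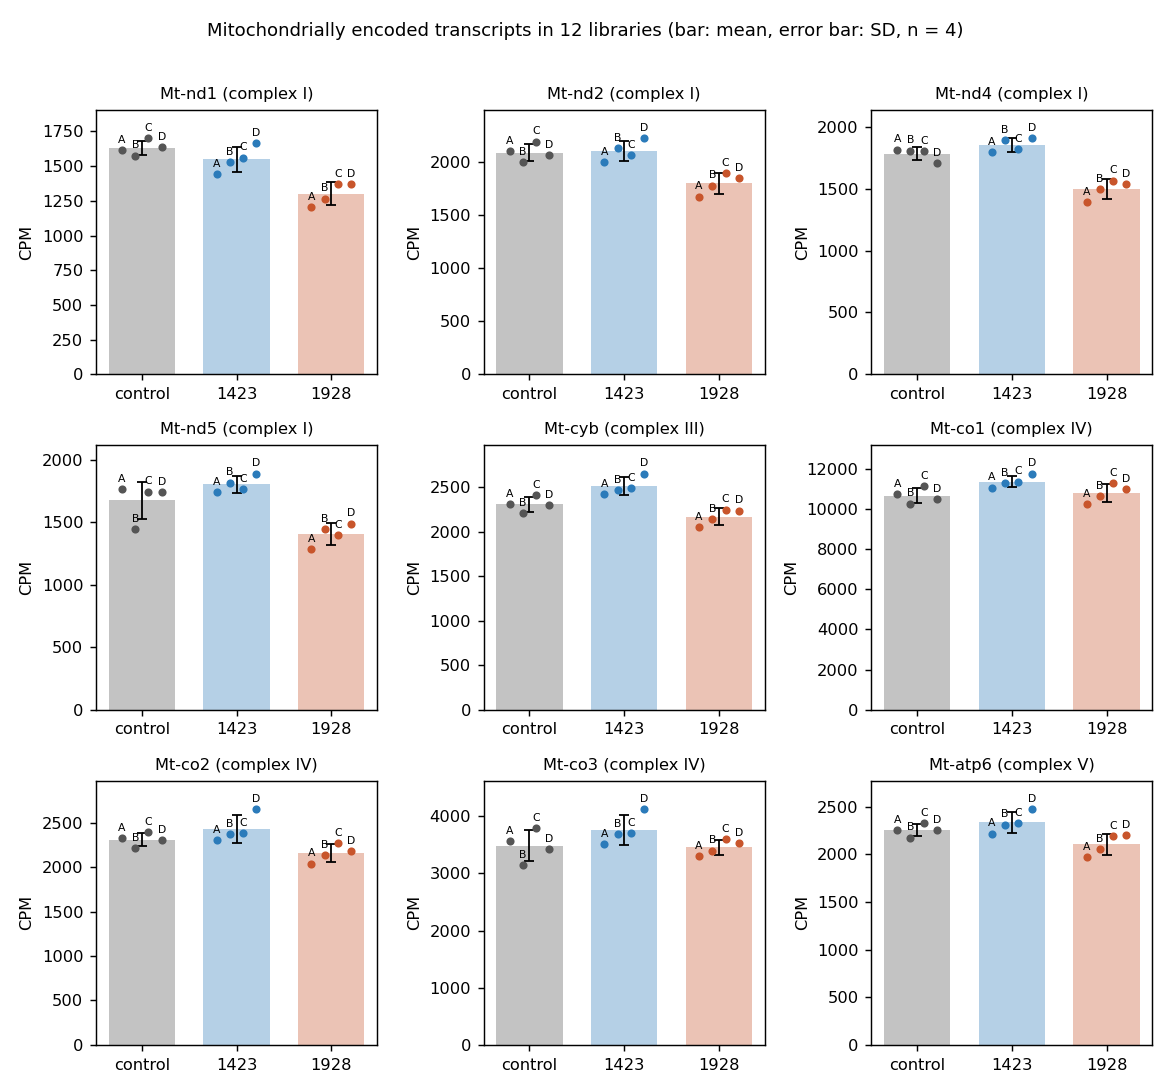
Level of each of the 9 mitochondrial transcripts in the 12 libraries, in counts per 1000000 (CPM) from 0; bars are group means, error bars the SD (n = 4), and lettered points the libraries A to D. The 4 libraries of siRNA 1928 lie below all control libraries for Mt-nd1, Mt-nd2 and Mt-nd4, and overlap with them for all the other genes, Mt-nd5 of complex I among them.

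With siRNA 1423, Mt-cyb of complex III and Mt-co1 of complex IV were slightly higher than in control cells, and the 7 other genes did not pass the test. These 2 of 9 genes called higher, with 0 lower, stood beside 22.8% of all tested genes called, 11.3% as higher and 11.5% as lower. Without control replicate B, or without replicate D of siRNA 1423, 0 of the 9 passed, where 2 and 3 had an unadjusted p under 0.05 by edgeR. Over all genes 2607 and 2516 were still called without these libraries. Unadjusted p-values under 0.05 gave 4 higher and 0 lower, and DESeq2 and limma voom each called 2 higher and 0 lower. The point values of 8 genes were above 0, with a median log2 fold change of 0.07 beside -0.0012 over all genes. That median was 0.0418 without replicate D of siRNA 1423 and 0.0436 in replicates A and B alone. Of the 52 other genes averaging at least 1000 CPM, 26.9% were called higher and 7.69% lower, with a median of 0.04. With the letters A and B against C and D added to the model, 5 of the 9 were called higher and 1, Mt-nd1, lower. Over all genes 3549 were then called, 1789 higher and 1760 lower, beside 2903 without that term.

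Mt-cyb was 2420, 2463, 2492 and 2651 CPM in replicates A to D of siRNA 1423, all above the highest control value of 2408. The mean was 2506 ± 101 CPM, beside 2306 ± 82.9 in the control group (SD, n = 4 each), a log2 fold change of 0.12 (SE 0.0338, adjusted p = 0.0123). It was the 1 member whose libraries did not overlap with the control group, with 1 higher and 0 lower beside 11.6% and 12% of all tested genes. Without control replicate B the adjusted p was 0.0506, and without replicate D of siRNA 1423 it was 0.0604, the highest of all alternatives, which began at 0.000141.

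Mt-co1 was 11075, 11282, 11374 and 11776 CPM with siRNA 1423, with replicate A under the highest control library. Its log2 fold change was 0.09 (SE 0.0304, adjusted p = 0.0298). That call was lost without control replicate B or D or without replicate C or D of siRNA 1423, where the adjusted p was 0.0995, 0.0867, 0.0574 and 0.104, in a range of 0.00102 to 0.104 over all alternatives. In replicates A and B alone, and in C and D alone, both genes were called higher, with 0.11 and 0.13 for Mt-cyb and 0.09 and 0.10 for Mt-co1 on the log2 scale.

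Among the other genes Mt-nd1 had the 1 point value below 0. It was 1445, 1527, 1561 and 1665 CPM with siRNA 1423, and its mean of 1550 ± 91.3 lay between those of siRNA 1928 and the control group. The log2 difference from control was -0.07 with a 95% interval of -0.16 to 0.01 (adjusted p = 0.214). Mt-nd2, at 2001, 2138, 2071 and 2229 CPM, was level with the control group, at 0.01 (interval -0.07 to 0.09, adjusted p = 0.868). Mt-nd4, at 1795, 1895, 1823 and 1909 CPM, and Mt-atp6, at 2219, 2314, 2333 and 2479 CPM, had log2 differences of 0.06 and 0.05 (adjusted p = 0.246 and 0.331). Mt-nd5 was 1741, 1818, 1769 and 1892 CPM, with 0.11 on the log2 scale (interval 0.0033 to 0.21, adjusted p = 0.134), and with 0.0437 without control replicate B (adjusted p = 0.482). Mt-co2 was 2307, 2374, 2384 and 2657 CPM, with 0.07 (adjusted p = 0.184). Mt-co3 was 3508, 3689, 3698 and 4129 CPM, with 0.11 (adjusted p = 0.103). Without replicate D of siRNA 1423 the values were 0.0269 for Mt-co2, 0.0591 for Mt-co3, 0.021 for Mt-atp6 and -0.017 for Mt-nd2, and for Mt-co3 and Mt-nd2 they were 0.0631 and -0.0089 without control replicate B. The control libraries overlapped with those of siRNA 1423 in each of these 7 genes.

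The direct comparison asked where the 2 siRNAs against 1 target differed. Compared with siRNA 1423, siRNA 1928 left 8 of the 9 transcripts lower and 0 higher by edgeR, beside 44.3% of all tested genes called, 23% as lower and 21.3% as higher. Unadjusted p-values under 0.05 gave 9 lower and 0 higher, limma voom called 9 lower and DESeq2 7, with 0 higher in both. The median log2 difference was -0.21, beside 0.0036 over all genes. Of the 52 other genes averaging at least 1000 CPM, 59.6% were called lower and 5.77% higher, with a median of -0.10. In 7 genes all libraries of siRNA 1928 lay below all of siRNA 1423, and in 0 above, beside 20.8% and 19.1% of all tested genes.

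The complex I genes again had the lowest values. Mt-nd5 had a log2 difference of -0.36 (SE 0.0502, adjusted p = 3.91e-06), with 1405 ± 87.8 CPM in siRNA 1928 and 1805 ± 65.9 in siRNA 1423. Mt-nd4 followed with -0.31 (SE 0.0336, adjusted p = 1.21e-07), Mt-nd1 with -0.25 (SE 0.0414, adjusted p = 3.49e-05) and Mt-nd2 with -0.23 (SE 0.0375, adjusted p = 3.48e-05). Outside complex I, Mt-cyb had -0.21 (adjusted p = 2.72e-05), Mt-co2 had -0.17 (adjusted p = 0.000978) and Mt-atp6 had -0.15 (adjusted p = 0.00167).

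The complex IV genes Mt-co3 and Mt-co1 lay at the threshold. Mt-co3 had -0.12 (adjusted p = 0.0429), which missed the threshold with library size alone (-0.06, adjusted p = 0.324) and with DESeq2 (adjusted p = 0.138). Leaving out replicate B, C or D of siRNA 1423, or A, B or D of siRNA 1928, gave adjusted p-values of 0.052 to 0.218 for it, and all alternatives 0.00288 to 0.324. Mt-co1 had -0.07 (interval -0.14 to -0.01, adjusted p = 0.0507) and passed in 11 of 24 alternatives, limma voom among them, and it was -0.01 with library size alone, where 66.4% of all calls were increases, beside 48.1% with trimmed means.

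**Figure D2:**
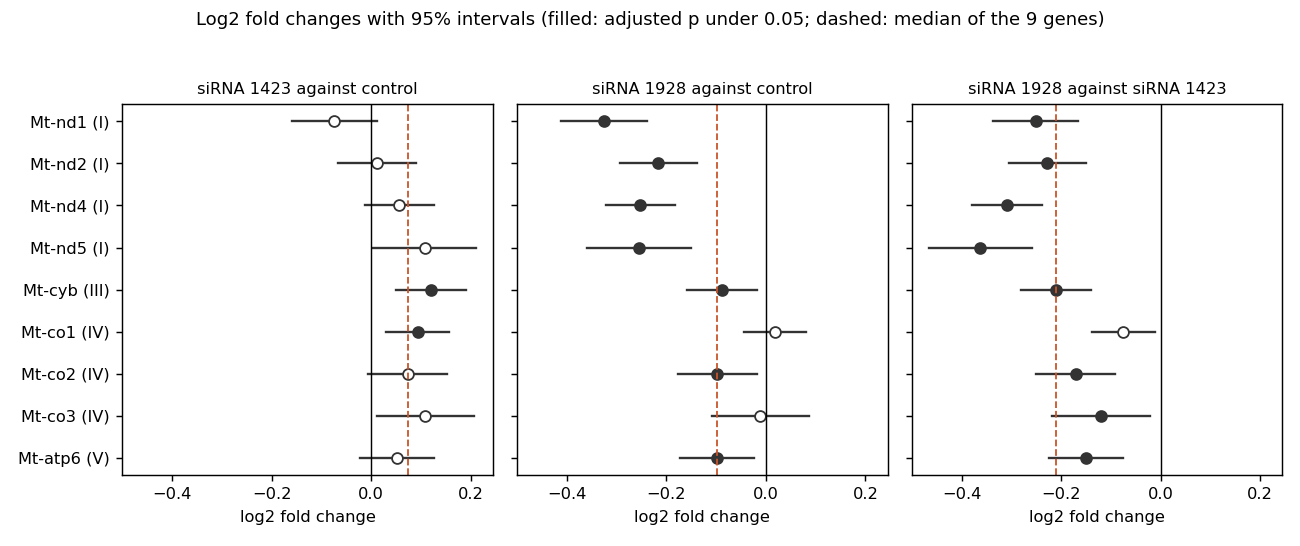
Log2 fold change of each gene (point) with its 95% interval (line) in the 3 comparisons; filled points had an adjusted p under 0.05 and the dashed line is the median of the 9 genes. In the comparison of siRNA 1928 with control the 4 complex I genes lie between -0.33 and -0.22, below the 5 others at -0.10 to 0.02.

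For each gene the groups can be put in order of their mean CPM. In Mt-nd1 and no other gene the control group was highest, and siRNA 1423, next to it, did not differ from it beyond the spread. In the 8 others siRNA 1423 was highest. For Mt-nd2, Mt-nd4 and Mt-nd5 the control group came next without a difference that passed the test, and siRNA 1928 was lowest and differed from both. For Mt-cyb all 3 groups differed in the reported model, with 2506 CPM in siRNA 1423, 2306 in the control group and 2168 in siRNA 1928. Of 24 alternatives, 7 lost the call of siRNA 1928 against control and 2 that of siRNA 1423 against control. Mt-co2 and Mt-atp6 followed the order of Mt-cyb, with only the step from control to siRNA 1928 past the threshold. That step was lost in 11 of 24 alternatives for Mt-co2 and in 6 for Mt-atp6. The 24 include fits without a library of the group outside the comparison, where the log2 value hardly moved (-0.098 to -0.0969 for Mt-co2). In Mt-co1 the order was siRNA 1423, siRNA 1928 and control, and neither step passed the test. Its outer groups, siRNA 1423 and control, did differ, a call lost in 4 of 24 alternatives. In Mt-co3 the order was siRNA 1423, control and siRNA 1928, and again neither step passed. The outer groups differed there too, a call lost in 10 of 24 alternatives.

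The make-up of the mitochondrial counts can be read without any scaling between libraries, by dividing each gene's count by the sum of the 9. These shares are descriptions, since they sum to a whole and the genes are few. The 4 complex I genes on the list held 25.5 ± 0.175% of that sum in the control group (25.2 to 25.6%), 24.6 ± 0.255% with siRNA 1423 (24.5 to 25.0%) and 22.5 ± 0.335% with siRNA 1928 (22.1 to 22.8%; SD, n = 4 each). The 3 ranges did not overlap. The share of Mt-nd1 was 5.66 to 5.87% in the control libraries, 5.07 to 5.31% with siRNA 1423 and 4.78 to 5.00% with siRNA 1928, and that of Mt-nd2 was 7.39 to 7.46%, 7.02 to 7.25% and 6.66 to 6.82%. Both genes thus stepped down in the same order, with no overlap.

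For Mt-nd4 only siRNA 1928 stood apart. Its share was 5.52 to 5.68% there, 6.11 to 6.73% in the control libraries and 6.08 to 6.42% with siRNA 1423. Mt-nd5 had 5.01 to 5.48% with siRNA 1928 and 6.00 to 6.16% with siRNA 1423. The control libraries of that gene ran from 5.39 to 6.24%, so that control replicate B reached into the range of siRNA 1928. On the other side, Mt-co1 took 37.6 to 38.3% in the control libraries, 37.5 to 38.8% with siRNA 1423 and 40.2 to 40.7% with siRNA 1928, above both other groups. Mt-co3 took 11.7 to 12.8%, 12.3 to 13.2% and 12.9 to 13.1%, and siRNA 1928 was above the control libraries but inside the range of siRNA 1423. The share of Mt-cyb was 8.35 to 8.49% with siRNA 1423, above the 8.09 to 8.24% of the control libraries and the 8.07 to 8.16% of siRNA 1928. Mt-co2 and Mt-atp6 had overlapping shares in all 3 groups, with means of 8.09 to 8.19% and of 7.86 to 7.99%.

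**Figure D3:**
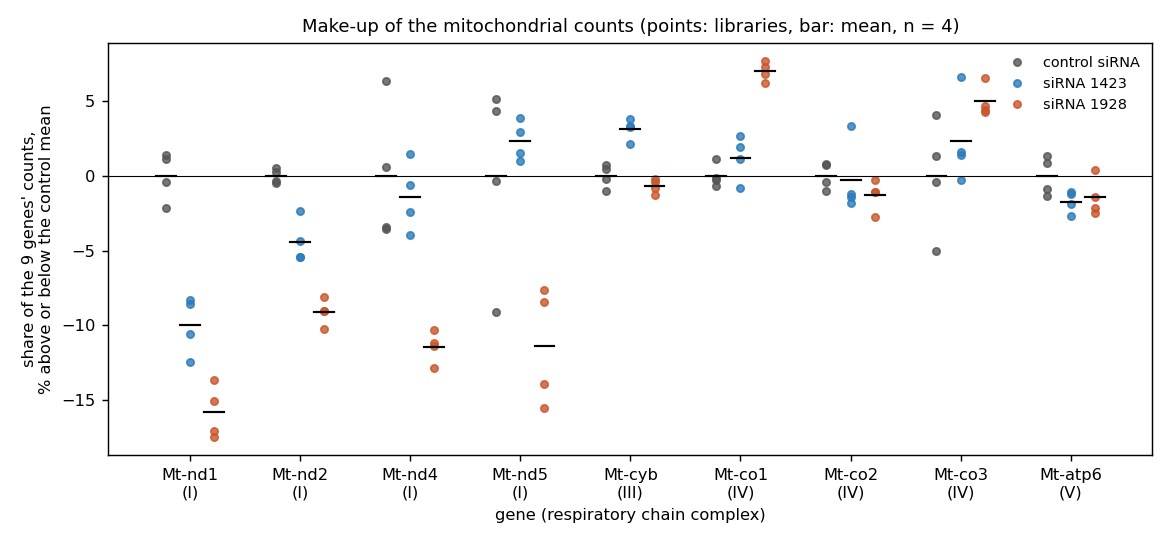
Share of each gene in the summed counts of the 9 genes, as the percentage above or below the control mean of that gene; points are libraries and bars are group means (n = 4). With siRNA 1928 the complex I genes lie under the line and Mt-co1 and Mt-co3 above it, from mean shares of 37.8% to 40.5% for Mt-co1.

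Libraries of 1 group tended to be high or low for most of the 9 genes together. Replicate A was the lowest library for all 9 genes with siRNA 1423 and again with siRNA 1928. Replicate D was the highest for all 9 with siRNA 1423, and with siRNA 1928 replicate C was highest for 6 and D for 3. In the control group replicate B was lowest for 8 genes and replicate C highest for 7. The median coefficient of variation of the 9 genes was 3.51% for control libraries, 4.60% for siRNA 1423 and 5.18% for siRNA 1928. For the 52 other genes of at least 1000 CPM it was 3.21%, 2.46% and 2.01%.

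Libraries lettered C and D were also compared with those lettered A and B. In the model with both the group and A and B against C and D, 7 of the 9 genes were higher in C and D by edgeR and 0 lower, beside 3.58% of all tested genes called higher, and Mt-nd1 differed most, at 0.11 on the log2 scale (adjusted p = 0.00066). Mt-nd4, at 0.03 (adjusted p = 0.566), and Mt-nd5, at 0.08 (adjusted p = 0.126), did not pass. No source says what the letters stand for, and beyond fits to each pair of letters their part in the results was not tested.

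Those fits kept the complex I genes lowest. In replicates A and B alone, siRNA 1928 against control gave -0.37 for Mt-nd1, -0.25 for Mt-nd2, -0.33 for Mt-nd4 and -0.24 for Mt-nd5. In C and D alone the values were -0.29, -0.19, -0.18 and -0.28. All 8 of these passed the test, with adjusted p-values up to 0.00235. The smaller falls of Mt-cyb, Mt-co2 and Mt-atp6 passed in A and B (-0.11, -0.12 and -0.14) but not in C and D (-0.07, -0.08 and -0.06, adjusted p = 0.0628, 0.0892 and 0.111).

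**Figure D4:**
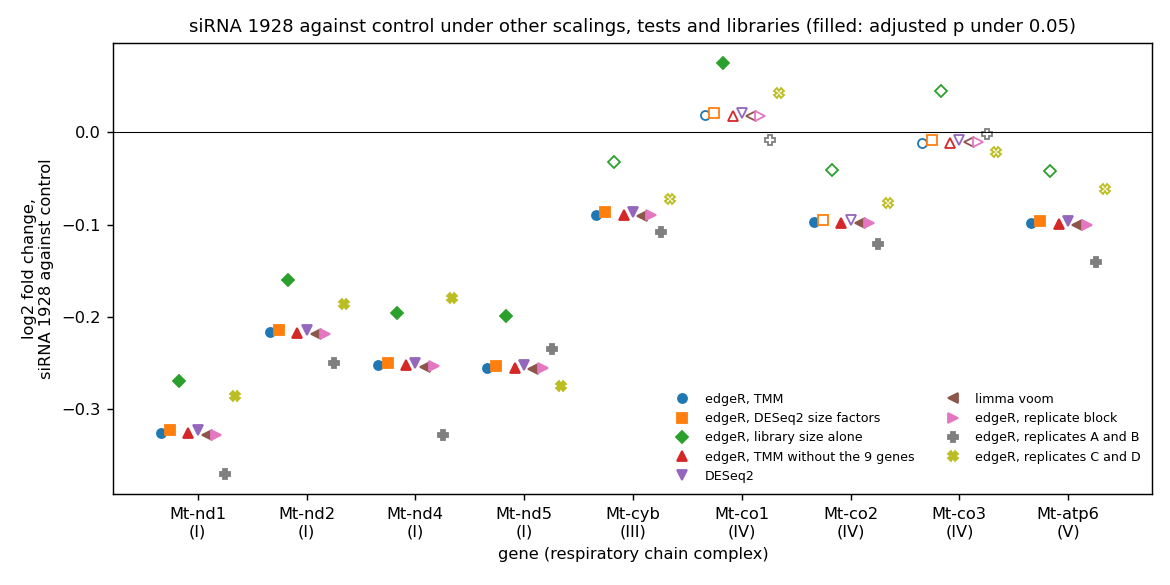
Log2 fold change of each gene with siRNA 1928 against control under 9 settings of scaling, test and libraries; filled marks had an adjusted p under 0.05. The complex I genes are below 0 and filled throughout, with -0.27 as the value of Mt-nd1 with library size alone, while Mt-co1 and Mt-co3 lie about 0 and Mt-co1 is filled, above 0, with library size alone.

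The likeness of profiles was measured as the root mean square difference of log2 CPM, each centred on its mean over the 12 libraries, with smaller values for more alike profiles. Each gene was set against the mean of the 8 others and ranked among 10492 genes averaging at least 5 CPM. Mt-atp6 and Mt-co2 came first in their rankings, at 0.0319 and 0.0324, Mt-cyb took rank 2 at 0.0333 and Mt-nd2 rank 4 at 0.0359. The remaining members were less like the rest, with Mt-nd4 at rank 373, Mt-co3 at 553, Mt-co1 at 757, Mt-nd1 at 1248 and Mt-nd5 at 1799. The median gene differed from these means by 0.144 to 0.153. The non-member genes most like the mean of all 9 were ENSRNOG00000059043, at 0.0336, and ENSRNOG00000011857, at 0.0340. For the former the control mean was 99.5 ± 2.25 CPM, that of siRNA 1423 was 100.2 ± 2.35 and that of siRNA 1928 was 87.8 ± 3.81 (SD, n = 4). For the latter they were 265.5 ± 6.65, 275.9 ± 6.16 and 236.7 ± 8.74 CPM.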

How the data were processed

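The authors deposited 1 table of expected counts (estimated read counts) per rat gene ID, with 1 column per library and 0 columns of other samples. The unit was read from the values. The submitters' processing notes name bcl2fastq 2.20, fastp 0.21.0, DESeq2 1.24.0 and the build mRatBN7.2. No aligner, counter or strand setting for counting is named, so these count as not given in the sources used here. All 108 values of the 9 genes had decimals, as 44.7% of all values above 0 did (tolerance 1e-06), so reads shared with other genes or nuclear copies may have been divided, in a way not given.

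Counts were rounded, filtered with filterByExpr of edgeR (minimum count 10, minimum total 15) and scaled by TMM. All 12 libraries entered 1 quasi-likelihood model that had a mean for each group, and p-values were adjusted over 12731 genes (R 4.3.3, edgeR 4.0.16, limma 3.58.1, DESeq2 1.42.0, matplotlib 3.10.9). Standard errors and 95% intervals came from each gene's log2 fold change and F value. Profiles used log2 CPM computed from the deposited counts with a prior count of 2. Between libraries of a group, counts varied 1.93 to 5.89 times as much as sampling alone gives (chi-square ratio, 18 pairs), and none was counted as a copy. The code was tested on simulated data.

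All 9 genes are reported whatever they showed, with the 2 genes most like them. The members and lists were chosen with earlier results of these data known. Lists of nuclear respiratory chain genes and of cell markers could not be matched to IDs and were not used here. The alternatives covered scaling, test, filter, the letters, pairs of groups and each library left out, also those of the group outside a comparison.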

Additional observations from a re-analysis of the deposited data

Results flagged for a closer look

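The difference between siRNA 1928 and siRNA 1423 passed the test in 8 genes. Of all tested genes 44.3% were called in this comparison, 23% as lower and 21.3% as higher. Of the 52 other genes averaging at least 1000 CPM, 59.6% were called lower and 5.77% higher. The log2 values of the 8 were -0.25 for Mt-nd1, -0.23 for Mt-nd2, -0.31 for Mt-nd4, -0.36 for Mt-nd5, -0.21 for Mt-cyb, -0.17 for Mt-co2, -0.12 for Mt-co3 and -0.15 for Mt-atp6. A search of 57 groups of 4 values for a library far from the others, which chance finds in about 1 of 20, picked out 4. In the control group these were the CPM of Mt-nd4 in replicate D, at 1707, and of Mt-nd5 in replicate B, at 1448. Among shares of the 9 genes' counts they were Mt-co2 in replicate D of siRNA 1423, at 8.47%, and Mt-co3 in replicate A of siRNA 1928, at 13.1%. The shares were rounded before the search. For Mt-co3 with siRNA 1928 they were 13.142, 12.881, 12.916 and 12.869% before rounding, and this pick depended on the rounding.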

How the results depend on the processing

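The falls of Mt-nd1, Mt-nd2, Mt-nd4 and Mt-nd5 with siRNA 1928, against control and against siRNA 1423, kept their direction and their call in all 24 alternatives. Of the 9 genes, those called with siRNA 1928 against control numbered 4 in replicates C and D alone and 4 to 7 with 1 library left out (4 without control replicate C or D or without replicate A or B of siRNA 1928), and with library size alone 4 were lower and 1 higher. With siRNA 1423 against control the count was 4 with no low-count filter, 5 in replicates C and D alone, 6 with the letters as a term and 0 to 3 with 1 library left out by edgeR. It was 0 without control replicate B or without replicate D of siRNA 1423, where 2 and 3 genes had an unadjusted p under 0.05. It was 1 without control replicate D or replicate C of siRNA 1423, and 3 without control replicate C. Over all genes that comparison gave 2903 calls in the model reported above. It gave 1535 in replicates A and B alone, 2361 in C and D alone, 2839 with no low-count filter and 3549 with the letters as a term. With 1 library left out it gave 2350 to 2893. For siRNA 1928 against control the calls over all genes were 5752 in the reported model and 4776 in replicates C and D alone. They were 5210 to 5762 with 1 library left out, and 3868 higher and 2137 lower with library size alone.

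With the letters as a replicate block, 5 mitochondrial genes were called with siRNA 1423 against control, 4 higher and 1 lower (Mt-nd1). Over all genes 3365 were called there, beside 2903 without the block. For the mitochondrial genes the block changed no call of siRNA 1928 against control. Against siRNA 1423 it also called Mt-co1. Libraries with the same letter shared deviations weakly (r of 0.0296 to 0.134, over 0.1 in 5 of 12 pairs), and 7 of 12 libraries correlated best with their own letter. The reported model did not take the letters as pairs because the labels do not say that they pair libraries. Whether they do was not tested.

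Signs turned in values near 0. Mt-nd2 with siRNA 1423 ran from -0.017 to 0.0353 with 1 library left out. With siRNA 1928 against control, Mt-co1 was -0.00843 in replicates A and B and -0.00387 to 0.0428 with 1 library left out, and Mt-co3 was 0.0455 with library size alone and -0.0572 to 0.0313 with 1 left out. The cause was not tested. Of all values recomputed under an alternative, 961 kept their direction and side of the threshold or, for counts, medians and shares, stayed within a set tolerance. Another 29 gained and 50 lost a call or calls, and 7 turned sign. The tolerance was a fixed ratio for counts and 1 SD between libraries for medians and shares, and it took in wide moves. With library size alone, the mitochondrial calls of siRNA 1928 against control went from 7 lower to 4 lower and 1 higher. The median of the 9 genes went from -0.0986 to -0.0421 there.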
